A study of Sus scrofa with 18 samples.

Results

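The RNA carried in pig serum before shock (Baseline) is described here from 6 of the 18 libraries of the series, chosen by their column labels in the table of raw counts, over all 31908 annotated genes and the 26 gene types that the table gives them. Each library is the serum RNA of another female Danish Landrace pig, 5 months old and anesthetized. At Baseline no animal had yet received the coronary microspheres that later induced cardiogenic shock (CS) or the percutaneous ventricular assist device (pVAD). Venous blood was spun down directly after it was drawn and the supernatant frozen, with no clotting step described. The CS and pVAD libraries are not analysed here, so no time points are compared.

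RNA outside cells circulates in serum as fragments held in vesicles, lipoproteins and protein complexes, and comes mainly from blood cells, with smaller parts from vessel walls and organs. Ribosomal RNA (rRNA), mitochondrial RNA and the short structured RNAs that work inside protein complexes, such as Y RNAs and the RNA of the signal recognition particle, are well-known members of this pool. Since serum has no cells of its own, it has no defining marker gene against which its label could be checked.

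The 6 libraries held 18229243 to 42902537 counts, lowest in replicate 5. Levels are given as the share of all gene counts of a library (in %) or as counts scaled to a library total of 1000000 (CPM), mean ± SD over the 6 libraries unless stated. Both follow the number of reads, which grows with gene length, so a rank by share is a rank of reads and not of RNA molecules. Replicates 3, 5 and 6 stood apart. Replicate 3 had the least of its counts in a few genes, and 427 of 599 genes of 100 CPM or more were highest in it. Replicate 5 held far more of a group of 14 genes led by TTLL11, and replicate 6 held less of short genes and more of small nuclear RNAs. What sets these libraries apart was not tested.

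Protein-coding and long non-coding RNA genes, as the table labels them, made up most of Baseline serum counts. The type protein_coding took 49.4 ± 5.61% of the counts (n = 6), with a lowest library at 43.5%, a median of 48.2% and a highest at 58.7% in replicate 3. The type lncRNA took 37.6 ± 5.96%, between 28.6% in replicate 3 and 45.9% in replicate 5, with a median of 37.9%. Nuclear-encoded ribosomal RNA genes (rRNA) held 6.55 ± 1.22% (4.50 to 8.17%, median 6.72%) and the pair of mitochondrial ribosomal RNA genes (Mt_rRNA) held 5.03 ± 1.44% (3.41 to 7.67%, median 4.96%). Without replicate 3, protein_coding held 47.5% and lncRNA 39.4%, and without replicate 1 Mt_rRNA held 4.51%. The shares of protein_coding and lncRNA lean on a few rows with no symbol, whose type labels were not checked. Without its highest row protein_coding held 35.9 ± 5.61% of all counts, and without its 3 highest rows lncRNA held 6.92 ± 0.749%.

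The remaining types were small. In some rows the table repeats the label protein_coding once for every NCBI gene matched to the Ensembl gene, and the rows with the label given 2 times held 0.935 ± 0.184%. With all such rows merged, protein-coding genes held 50.5 ± 5.8%. Pseudogenes held 0.181 ± 0.0299%, spread over many rows (the highest, ENSSSCG00000036551, took 5.33 to 11.7% of the type), ribozymes 0.0464 ± 0.0421% and small nuclear RNAs (snRNA) 0.0171 ± 0.0192%. The 15 types under 0.01%, among them miRNA, snoRNA, Y_RNA and Mt_tRNA, held 0.0313% together. No row of the types IG_C_gene and TR_J_gene, the constant and joining segments of antigen receptors, held a count.

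**Figure D1:**
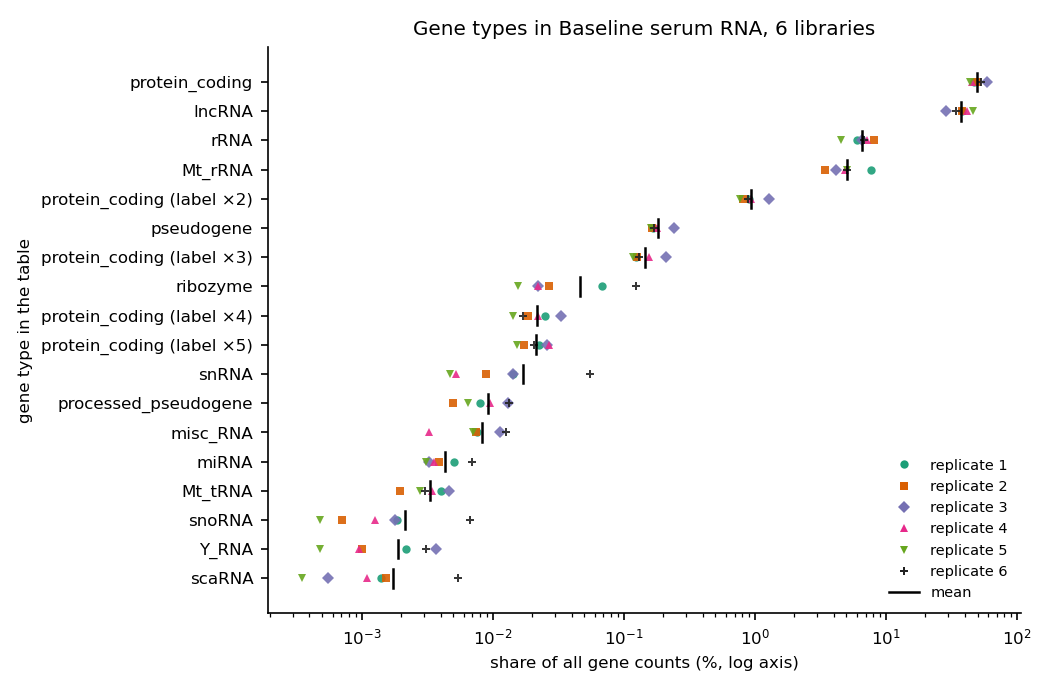
Share of all gene counts (%, log axis) of the 18 gene types of highest mean share in the 6 Baseline libraries. Symbols are libraries and black bars are means. The large types kept within narrow ranges, such as 43.5 to 58.7% for protein_coding, while snRNA ran between 0.00474 and 0.0554%, with replicate 6 far right of the other libraries.

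The order of the types was tested by an exact sign-flip permutation test (two-sided) of the log2 ratio of neighbouring types, for the 10 pairs of neighbours with a mean share of 0.01% or more. In 5 of the 10 pairs the upper type was higher in all 6 libraries, with an exact p of 0.03125 each, the smallest that 6 libraries can give, and a Benjamini-Hochberg value over the 10 pairs of 0.0625. No pair thus passed 0.05 after adjustment. The pairs and their direction were set by the same mean shares that are compared, so these p-values only describe how steady the order was. lncRNA exceeded rRNA by a mean log2 ratio of 2.53 (SD 0.45, n = 6), and pseudogenes exceeded rows with the label given 3 times by 0.35 (SD 0.11). In the other 5 pairs the order turned in at least 1 library. protein_coding exceeded lncRNA by a log2 ratio of 0.40 (SD 0.39), higher in 5 of 6 libraries (exact permutation p = 0.0625). rRNA exceeded Mt_rRNA by 0.40 (SD 0.58), higher in 4 of 6. This order counts both near-identical 5.8S rRNA copies. Without the second copy the mean share of rRNA lay below that of Mt_rRNA. Ribozymes, rows with the label given 4 or 5 times and snRNA followed each other with mean log2 ratios of -0.01 to 0.86, each smaller than its SD.

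The types differed in how many of their genes were read at all. Of 20860 protein_coding rows 18492 held a count in at least 1 library and 16587 in all 6, and of 6790 lncRNA rows 5835 and 4845 did. Among the short RNAs most rows were empty: 382 of 1104 snRNA rows, 124 of 591 snoRNA rows and 105 of 368 miRNA rows were read. All 22 mitochondrial transfer RNA rows (Mt_tRNA) were read, 17 of them in every library, with 0.00331 ± 0.000941% of the counts.

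Baseline serum RNA combined great breadth with great concentration. Between 23654 and 25731 genes held at least 1 count in a library, with a median of 25149, and between 20854 and 24530 held at least 10. Thinned to the 18229243 counts of the shallowest library, the expected number of genes read was 23320 to 25571, so depth moved these numbers little. In all 6 libraries together 26119 genes were read, 22242 of them in every library.

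The 4 highest genes of each library held 32.8 to 49.8% of its counts (median 45.9%) and the 10 highest held 44.2 to 63.8% (median 59.2%). In 5 libraries 5 or 6 genes sufficed for 50% of the counts, while replicate 3 needed 92. For 90% of the counts 4401 to 7115 genes were needed. Replicate 3 was lowest in the share of the 10 highest and highest in the genes needed for 50% and 90%, and no other library overlapped it. Of the 599 genes of 100 CPM or more on average, replicate 3 was the highest library for 427, against 13 once the libraries were scaled by TMM factors (0.813 to 1.44, highest in replicate 3) and 42 when the total was taken without the 10 genes of highest mean share.

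**Figure D2:**
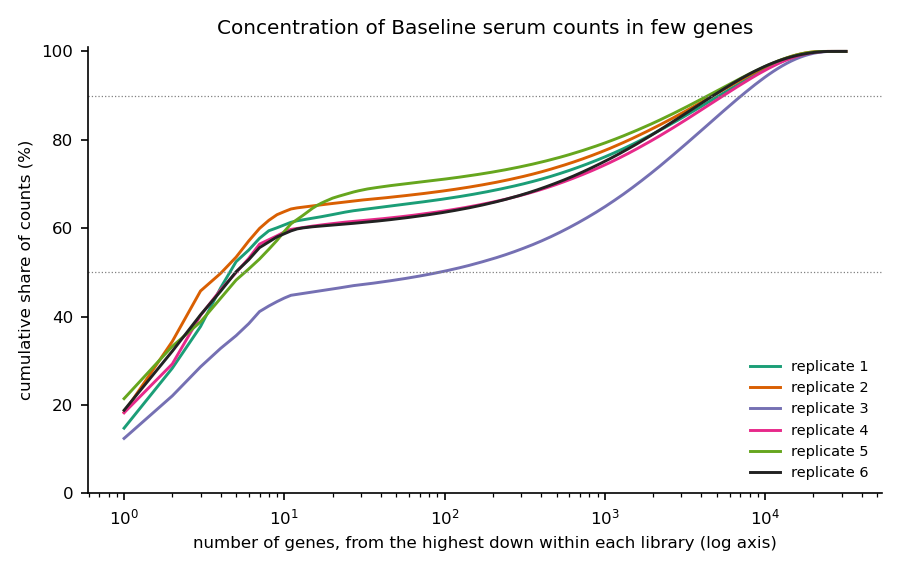
Cumulative share of counts (%) against the number of genes, ranked from the highest down within each library (log axis), with 1 line for each of the 6 Baseline libraries. Lines of 5 libraries reach 50% by 5 or 6 genes, and the line of replicate 3 runs below them and reaches 50% at 92 genes.

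The genes of highest share were mostly without a name. Among the 20 highest, which held 60.1% of the counts on average, 9 were lncRNA, 6 protein_coding, 3 rRNA and 2 Mt_rRNA, and 16 had no symbol in the table. ENSSSCG00000041596, a lncRNA, led with 15.4 ± 4.14% (9.63 to 21.4%, median 14.8%, highest in replicate 5). ENSSSCG00000034846, a protein_coding gene with no symbol, followed with 13.5 ± 5.03% (5.35 to 18.8%, median 13.6%), and replicate 5 was its lowest library. The lncRNAs ENSSSCG00000041875 and ENSSSCG00000048719 held 9.63 ± 2.10% (6.58 to 11.8%) and 5.70 ± 1.97% (3.97 to 9.42%). Of ENSSSCG00000048719, replicate 1 held 9.42% and the other libraries 3.97 to 5.76%. The 3 highest lncRNAs held 30.7 ± 6.43% together, which left 6.92 ± 0.749% for the other 6787 lncRNA rows.

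Of the 9 pairs of neighbours among the 10 highest genes, 3 kept their order in all 6 libraries (exact permutation p = 0.03125 each, Benjamini-Hochberg value 0.0938). One of the 3 is the pair of near-identical 5.8S rRNA copies, and the pairs were set by the same means that are compared. The first and second genes did not differ beyond their spread: ENSSSCG00000041596 exceeded ENSSSCG00000034846 by a mean log2 ratio of 0.26 (SD 0.96), and was higher in only 2 of 6 libraries (exact permutation p = 0.656). Without replicate 5 their order turned, with 14.2% for ENSSSCG00000041596 and 15.1% for ENSSSCG00000034846.

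Some of these genes kept near-constant ratios. Over the 45 pairs among the 10 highest, the SD of the log2 ratio of counts had a median of 0.56. It was 0.13 for ENSSSCG00000041596 over ENSSSCG00000041875, whose ratio stayed between 1.41 and 1.81. It was also 0.13 for the lncRNA ENSSSCG00000048719 over the mitochondrial rRNA gene ENSSSCG00000018063, with a ratio of 1.21 to 1.58. These pairs were picked out after their values were seen.

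Ribosomal RNA of both compartments held 11.6 ± 1.41% of the counts. The 5.8S rRNA, a short part of the large ribosomal subunit, is annotated in copies with near-identical counts: ENSSSCG00000037563 held 2.836 ± 0.563% and ENSSSCG00000036779 2.835 ± 0.563%, and they differed by at most 0.0576% of their counts in any library. Among 10175 genes with 100 counts or more in every library this was the only pair within 1% in all 6, and how the reads were divided between the copies is uncertain. Without the second copy the type rRNA held 3.82%, less than Mt_rRNA. ENSSSCG00000050765, an rRNA gene with no symbol, held 0.753 ± 0.273% (0.416 to 1.15%). RN18S, the RNA of the small ribosomal subunit, held 0.122% on average with 9236 to 65571 counts, and the 15 rows named 5S_rRNA shared 1275 counts over the 6 libraries. RN18S and the 5S rows were named after their values were seen.

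Of the mitochondrial genes, the pair of rRNA genes stood far above the rest. ENSSSCG00000018063 held 4.02 ± 1.15% (2.82 to 5.96%) and ENSSSCG00000018061 1.01 ± 0.420% (0.593 to 1.71%), both highest in replicate 1. The first took 69.6 to 87.4% of Mt_rRNA counts. The 13 mitochondrially encoded proteins, all subunits of the respiratory chain and ATP synthase, held 0.0886 ± 0.0178% together, lowest in replicate 6 (0.0633%) and highest in replicate 4 (0.109%). Per kb of gene they ran between 30.0 CPM for ND2 and 177 CPM for ND3, both subunits of complex I. ND5, of the same complex, stood at 90.4 CPM per kb (165 ± 39.3 CPM), CYTB of complex III at 90.4 CPM per kb (103 ± 28.9 CPM) and COX1 of complex IV at 66.4 CPM per kb (103 ± 18.4 CPM). The ATP synthase subunit gene ATP8 had the fewest reads, 6.73 ± 2.16 CPM, or 33.0 CPM per kb. These mitochondrial proteins were named after their values were seen.

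A group of 14 genes took very unequal shares in the 6 pigs. TTLL11, a ligase that adds glutamate chains to tubulin, had 25255 CPM in replicate 5, against 174 to 2072 CPM in the other 5. CA10, a carbonic anhydrase-related protein without enzyme activity, had 22012 CPM in replicate 5 and 187 to 1881 CPM in the others. The unnamed protein_coding gene ENSSSCG00000034853 and the lncRNA ENSSSCG00000042862 did likewise, with 22395 and 17303 CPM in replicate 5. ADAMTS18, a secreted metalloproteinase, had 3335 CPM there and 138 to 354 CPM elsewhere.

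Taking all genes of 50 CPM or more whose log2 CPM followed TTLL11 over the 6 libraries (Pearson r above 0.95, with a CV above 100%) gave these and 9 further protein_coding genes with no symbol. The rule was set after the values were seen and chose the genes by this pattern, so it is only a description. Together the 14 held 12.4% of counts in replicate 5, 1.01% in replicate 1, 0.636% in replicate 3, 0.440% in replicate 2, 0.348% in replicate 6 and 0.0730% in replicate 4. TTLL11 averaged 0.507% over 6 libraries and 0.104% without replicate 5. The mean shares of these genes thus rest largely on that library. TTLL11 was also among the highest genes of replicates 1 and 3, with 0.207 and 0.136% of the counts. PHYHIPL, also among the most variable genes, was high in 3 libraries (1644, 1244 and 1632 CPM in replicates 1, 3 and 5) and at 8.90 to 67.5 CPM in the others. These groups did not overlap.

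**Figure D3:**
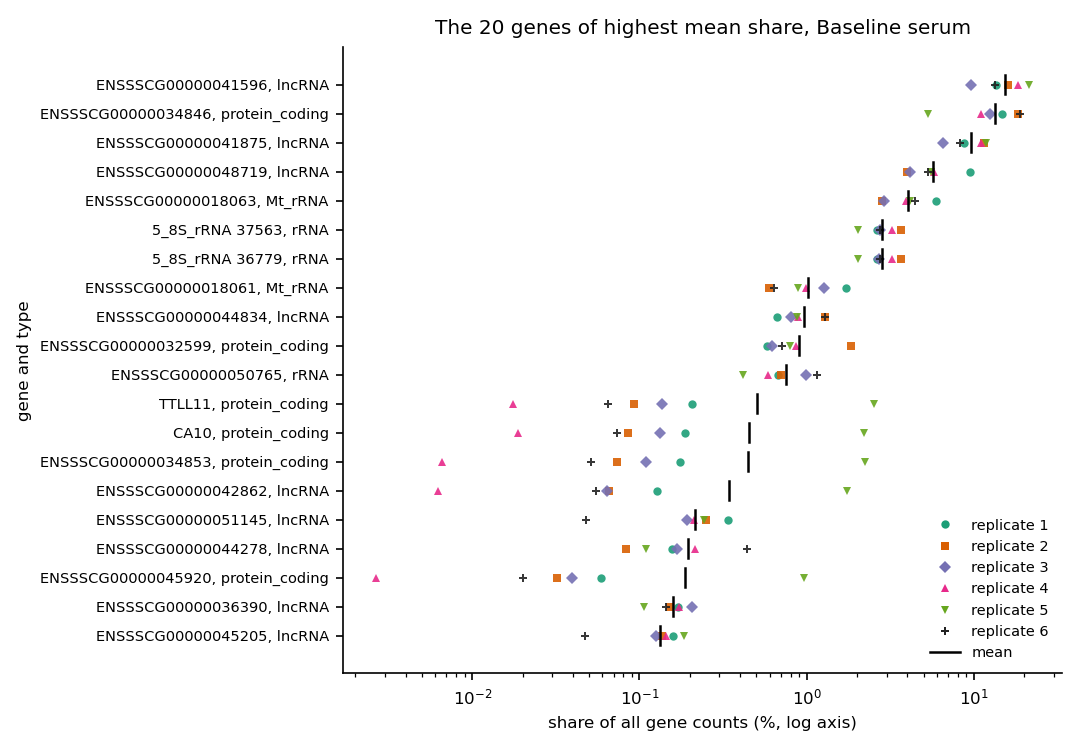
Share of all gene counts (%, log axis) of the 20 genes of highest mean share. Symbols are the 6 Baseline libraries and black bars are means. The upper 11 genes kept within a few-fold, while TTLL11, CA10, ENSSSCG00000034853, ENSSSCG00000042862 and ENSSSCG00000045920 lie far right in replicate 5, at 2.53% for TTLL11 against 0.0174% in replicate 4.

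ENSSSCG00000032599, the second highest protein_coding gene and likewise without a symbol, held 1.83% in replicate 2 and 0.575 to 0.867% elsewhere. Below the 3 leading lncRNAs, ENSSSCG00000044834 held 0.966 ± 0.256% and ENSSSCG00000036390 0.159 ± 0.0338%, the steadiest of the 10 highest lncRNAs with a CV of 21.3%. Some lncRNAs were far lower in replicate 6 than elsewhere: ENSSSCG00000051145 had 477 CPM there and 1918 to 3362 CPM elsewhere, ENSSSCG00000045205 472 against 1261 to 1849 CPM, and ENSSSCG00000045334 388 against 1129 to 1655 CPM. ENSSSCG00000044278 went the other way, with 4421 CPM in replicate 6 and 828 to 2145 CPM elsewhere.

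The short structured RNAs were a minor part of the counts, led by a few genes. As the library kit does not select small RNAs, these are shares of reads and need not follow the amounts in serum. How far the kit lowers them was not tested. RNase P RNA, the catalytic RNA that trims transfer RNA precursors, made up the type ribozyme almost alone: RNaseP_nuc (ENSSSCG00000020439) held 464 ± 421 CPM and 99.6 to 100.0% of the type. It had 35771 and 27673 counts in replicates 6 and 1 and 2862 to 10656 in the other 4. The RNA of the signal recognition particle, which brings ribosomes to the endoplasmic reticulum, is named Metazoa_SRP in 17 rows, 7 of which were read. They held 82.3 ± 33.3 CPM (32.9 to 125 CPM, median 74.9 CPM), and the copy ENSSSCG00000023048 alone 1110 to 3491 counts. Of the 9 Y RNA genes, whose RNAs bind the Ro protein, 8 were read, at 19.0 ± 12.9 CPM together (4.83 to 36.7 CPM, median 15.9 CPM).

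The small nuclear RNAs of the spliceosome differed widely between libraries. The 55 genes named U1, which pairs with the start of introns, held 382 CPM in replicate 6, 55.9 CPM in replicate 3, 38.2 CPM in replicate 1 and 5.61 to 10.3 CPM in the other 3. Their mean was 83.2 CPM, and 23.4 CPM without replicate 6. Counts of its leading copy ENSSSCG00000037026 were 5275 in replicate 6 and 8 to 858 in the others, with almost the same numbers in the copy ENSSSCG00000039278 (5220, and 9 to 845). U2 genes held 22.9 ± 14.3 CPM (8.12 to 47.3 CPM) and U6 genes 15.2 ± 13.9 CPM (4.33 to 40.7 CPM). The highest snRNA row by mean, ENSSSCG00000024742, has no symbol and was steadier, with 484 to 2131 counts.

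Small nucleolar and Cajal body RNAs, most of which guide chemical changes of other RNAs, were as types highest in replicate 6. SNORA44 had 763 counts there and 1 to 253 in the others, SNORA16A 619 against 9 to 126, and SCARNA16 1500 against 53 to 568. The SNORD116 genes went the other way, with 0 counts in replicates 5 and 6, 3 in replicate 2 and 137 to 180 in the other 3. The 1 vault RNA gene that was read had 5 to 143 counts. Without replicate 6 the mean share of snRNA was 0.00946%, against 0.0171% with it, and that of ribozymes 0.0310% against 0.0464%. Vault, Y RNA, SRP, snoRNA and SCARNA16 genes were named after their values were seen, and the reads of near-identical copies of U1, U2, U6 and Y RNA cannot be assigned to a single copy with certainty.

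Counts over miRNA genes were few and came mostly from 1 row. The library kit does not select small RNAs and the authors dropped the shortest reads, so a row of the type miRNA counts reads over the gene and does not separate the mature miRNA from longer RNA over the same place. ssc-mir-6782 (ENSSSCG00000037644) held 7122 of 8909 miRNA counts, with 426 to 1805 per library and 52.3 to 89.8% of the type. Next came ssc-mir-223, a miRNA abundant in neutrophils and platelets, with 14 to 118 counts (1.30 ± 1.03 CPM, highest in replicate 3). ssc-mir-24-1 had 0 to 43 counts and ssc-mir-23a 0 to 36. MIR142, known from blood cells, had 0 in replicates 2 and 5 and at most 0.621 CPM. A count of 0 allows up to 3 counts, or 0.0762 CPM in replicate 2 and 0.165 CPM in replicate 5. Of the 368 miRNA genes, 52 reached 10 counts summed over the 6 libraries, so most of the type was at the limit of this depth.

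**Figure D4:**
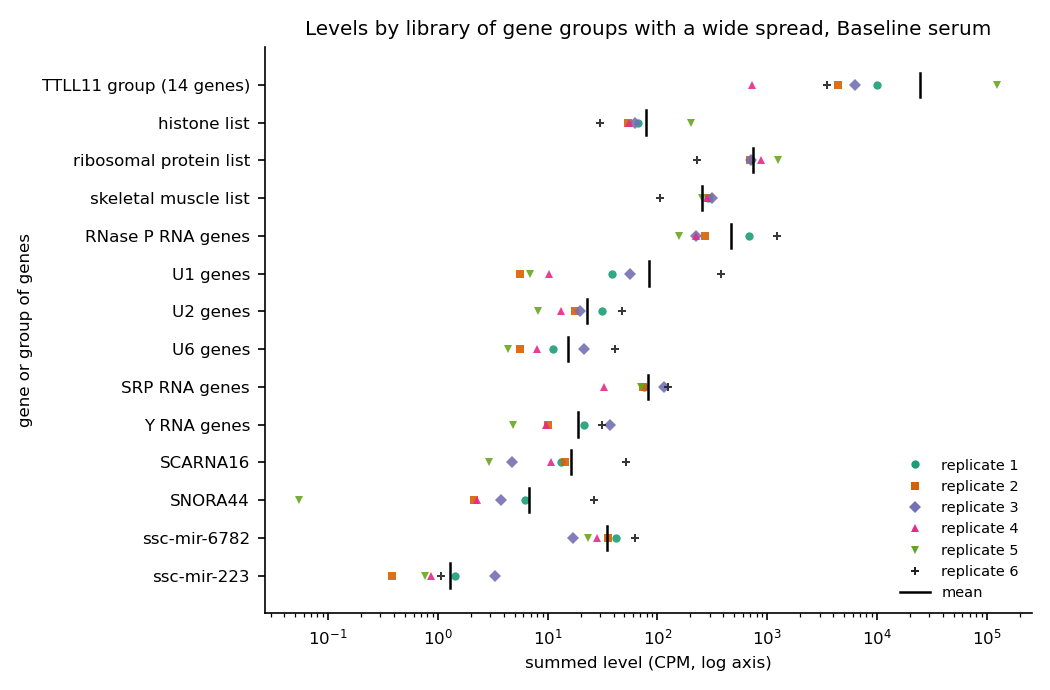
Summed level (CPM, log axis) in each of the 6 Baseline libraries of the TTLL11 group, 3 gene lists and 10 short RNA genes or families with a wide spread. Symbols are libraries and black bars are means. Replicate 5 is far right for the TTLL11 group and the histone list (204 against 29.7 to 66.7 CPM), and replicate 6 is right for U1 (382 against 5.61 to 55.9 CPM) and left for ribosomal proteins and skeletal muscle genes.

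Among nuclear protein-coding genes with a symbol, those with the most reads included several very long genes. After TTLL11 and CA10 came RBFOX1, a splicing factor of neurons and muscle whose gene spans 2271 kb, with 863 ± 223 CPM (598 to 1225 CPM). ADAMTS18 and PHYHIPL followed, and then ASIC2, an acid-sensing ion channel (581 ± 115 CPM over 305 kb), WWOX, an oxidoreductase gene at a fragile site (487 ± 122 CPM over 961 kb), CAMTA1, a calmodulin-binding transcription activator (444 ± 109 CPM over 866 kb), PTPRT, a receptor tyrosine phosphatase (437 ± 98.7 CPM over 1163 kb) and GMDS, an enzyme of GDP-fucose synthesis (434 ± 120 CPM over 436 kb). Per kb, RBFOX1 stood at 0.380 CPM, WWOX at 0.507 CPM, CAMTA1 at 0.512 CPM and PTPRT at 0.376 CPM, beside a median of 0.378 CPM for all genes. GMDS (0.995 CPM per kb) and ASIC2 (1.91) lay above it, and ADAMTS18 (4.72), CA10 (7.03), PHYHIPL (7.40) and TTLL11 (16.4) far above it.

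Spans, introns included, were available from RefSeq (Sscrofa11.1) for 17172 of 20860 protein_coding rows (82.3%), which held 32.6% of all counts. Across these genes, which are not independent replicates, mean CPM rose with span (Spearman 0.791). The correlation was 0.708 to 0.840 in single libraries, highest in replicate 6. Genes of up to 2 kb had a median of 0.743 CPM and genes above 500 kb a median of 136 CPM. Per kb the medians ran from 0.665 down to 0.180 CPM over the same bins. Over the 15882 genes that were read the median was 0.378 CPM per kb, and the 10th and 90th percentiles, 0.141 and 0.872 CPM per kb, were 6.18-fold apart. Whether reads were counted over exons only or over whole genes is not given in the sources used here, and a per-kb value depends on the RefSeq model, which may differ from the Ensembl gene.

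Of the genes with a span that were read, 146 (0.919%) stood more than 10 times above the median per kb. All 13 mitochondrially encoded proteins, 16 ribosomal proteins and 54 genes with no symbol were among them, and the 146 held 1.93% of all counts. HBB, the beta chain of hemoglobin, was the highest of these protein_coding genes: 402 ± 176 CPM (241 to 643 CPM, median 333 CPM) over 1.26 kb, or 319 CPM per kb, 845 times the median. It shares sequence with other globin genes, so its reads may be divided among copies. Others, named after their values were seen, were the chemokine gene CCL21 (42.1 CPM per kb), the actin-binding TMSB10 (21.7), the ferritin light chain FTL (16.8) and the growth-related TPT1 (14.9). ACTB, cytoplasmic actin, had 107 ± 37.0 CPM (43.0 to 148 CPM), or 17.5 CPM per kb.

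Marker lists of blood cells and of organs overlapped in their levels per kb. The red cell list had all but 2 of its 21 genes read and summed to 775 ± 230 CPM (557 to 1095 CPM), of which HBB gave 51.9%. Its median over genes read was 0.553 CPM per kb. ANK1 and SPTB, of the red cell skeleton, had 106 ± 21.6 and 71.8 ± 17.4 CPM, or 0.457 and 0.507 CPM per kb. The platelet list (16 genes) summed to 187 ± 31.2 CPM with a median of 0.460 CPM per kb, led by F13A1, the clotting factor XIII A chain (71.2 ± 18.1 CPM). Its highest gene per kb stood at 4.01 CPM per kb. CLEC1B, P2RY12 and GP1BB, receptors of platelets, were listed at 0 in all 6 libraries.

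For leukocytes, the neutrophil and monocyte list (22 genes) had a median of 0.628 CPM per kb and 254 ± 63.6 CPM, with the integrin ITGAM at 66.3 ± 18.9 CPM and the oxidase subunit NCF4 at 61.1 ± 19.0 CPM. LYZ, ELANE and MNDA were listed at 0. The T and NK cell list (26 genes) had a median of 0.450 CPM per kb, led by the transcription factor BCL11B (48.7 ± 13.99 CPM), and the B cell list (15 genes) 0.510 CPM per kb, led by PAX5 (109 ± 30.8 CPM). The endothelial list (15 genes) stood at 0.533 CPM per kb, with the VEGF receptor FLT1 at 81.9 ± 18.01 CPM.

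Lists of organs, and of cells that blood does not hold, had medians of 0.169 to 0.644 CPM per kb, against 0.450 to 0.628 CPM per kb for the blood cell and endothelial lists. The hepatocyte list (26 genes, 5 at 0) had a median of 0.445 CPM per kb, with APOB at 24.0 ± 7.93 CPM and ALB, serum albumin, at 22.8 ± 10.5 CPM. The cardiomyocyte list (15 genes) stood at 0.471 CPM per kb with RYR2, the calcium release channel of the heart, at 153 ± 54.5 CPM over 755 kb. Photoreceptor genes (14) had 0.466, neuronal genes (15) 0.362, kidney genes (13) 0.477 and lung alveolar genes (12) 0.531 CPM per kb. Skeletal muscle genes (14) had a median of 0.644, keratinocyte genes (13) 0.497 and pancreas genes (5) 0.169 CPM per kb. Single members stood more than 10 times above the median of all genes. In skeletal muscle these were TNNT3 (7.60 CPM per kb over 19.0 kb) and MYLPF (5.81 over 2.94 kb). In neurons this was RBFOX3 (11.4, which depends on its RefSeq span of 22.1 kb). The hepatocyte, cardiomyocyte, photoreceptor, kidney, lung alveolar, keratinocyte and pancreas lists had no such gene. Of the 108 olfactory receptors, which few tissues express, 52 were read in all 6 libraries and 11 were at 0. The 87 that were read and had a span had a median of 0.379 CPM per kb, beside 0.378 CPM per kb for all genes read. The highest of them per kb was OR10A3 (6.49). Over the 19 lists with spans for at least 80% of their genes, 18 medians fell between the 10th and 90th percentile of all protein_coding genes.

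The exception was the ribosomal protein list, with 48 of 50 genes read and a median of 2.68 CPM per kb, 7.09 times that of all genes. RPS2 had 75.4 ± 36.8 CPM, RPS20 55.1 ± 32.8 CPM and RPL37 50.8 ± 35.1 CPM. The list summed to 1255 CPM in replicate 5, 231 CPM in replicate 6 and 695 to 870 CPM in the others. Processed copies of ribosomal protein genes may share these reads. The housekeeping list (10 genes) had the second highest median, 0.756 CPM per kb, yet GAPDH, a glycolytic enzyme, had only 1.17 CPM on average (0.211 CPM per kb). The 60 nuclear-encoded genes of the respiratory chain stood at 0.406 CPM per kb. The histone list had spans for 77.8% of its 18 genes, too few for a value per kb. It was led by H1-3, a linker histone, with 69.7 CPM in replicate 5 and 5.90 to 16.5 CPM elsewhere. The list summed to 78.6 CPM on average, and to 53.5 CPM without replicate 5.

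**Figure D5:**
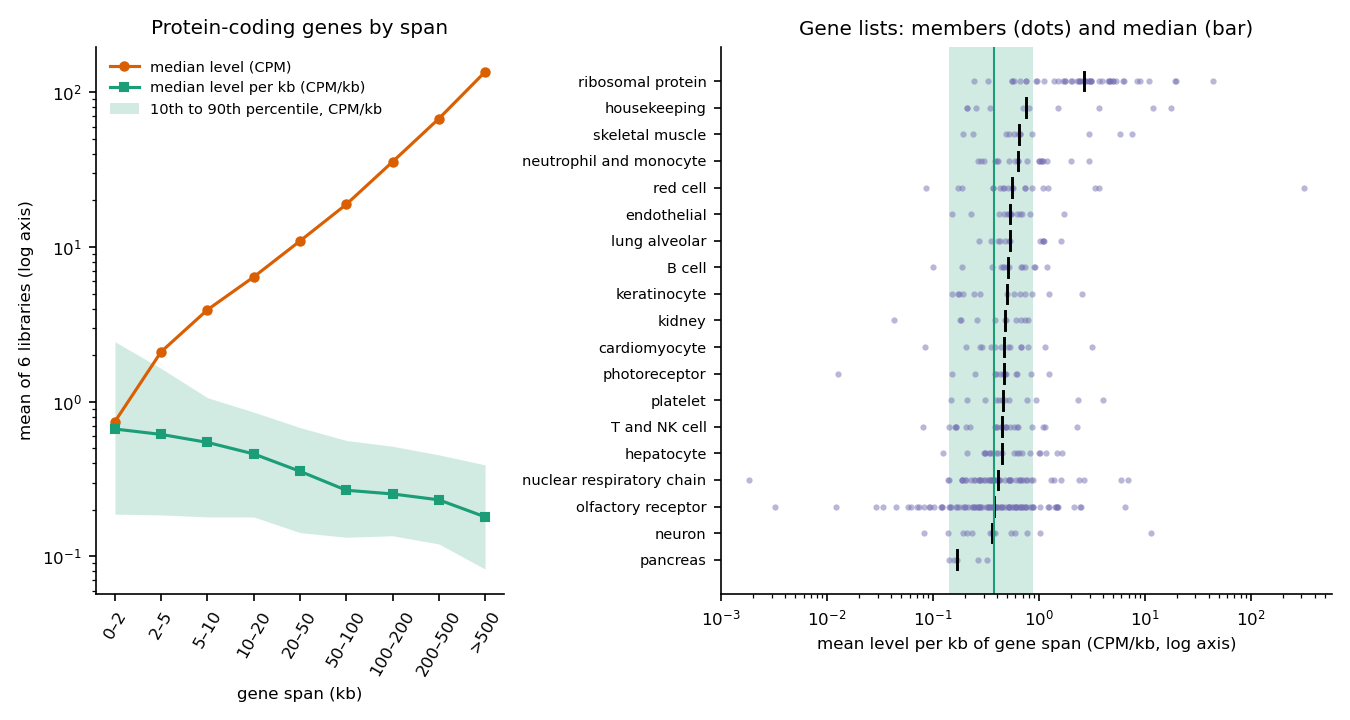
Left, median level of protein_coding genes (CPM) and median level per kb (CPM per kb, with the 10th to 90th percentile shaded) by gene span, log axis, means of 6 libraries. Right, level per kb of each gene read in 19 gene lists (dots) with the list median (bar), against the median (line) and the 10th to 90th percentile (shading) of all protein_coding genes. CPM climbs to a median of 136 while CPM per kb stays below 0.7, and the ribosomal protein list alone has its median right of the shading.

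Of the 20 lists, 17 were highest in replicate 3 by CPM and 1 was after TMM scaling. In replicate 3 most other genes also took larger shares, so these sums do not separate more RNA of a tissue from less RNA of the leading genes. Fewer cells of a type and less RNA per cell cannot be told apart in such sums either.

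Many rows were empty. At Baseline 5789 rows (18.1%) had 0 counts in all 6 libraries. Among protein_coding rows with a span, 1290 were at 0 and 600 of these span more than 10 kb. Of 488 list members 46 were at 0, among them the liver genes SERPINA1, FGA and FGB, the red cell genes ALAS2 and HBM and the T cell gene CD3G. At 0 a gene is below 0.0699 to 0.165 CPM, the level of 3 counts in the deepest and shallowest library, and other genes of the same lists were read in all 6. GAPDH and the genes named here and above as at 0 were named after their values were seen, and why they are listed at 0 was not tested.

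Between libraries a gene varied by a median CV of 43.9% (quartiles 32.4 and 61.3%) over 24148 genes with a mean of 10 counts or more. The spread fell with depth up to 10000 counts: the median CV was 69.7% for genes of 10 to 100 counts, 38.9% for 100 to 1000 and 30.2% for 1000 to 10000. It was 34.5% for the 81 genes above that. protein_coding genes had a median CV of 40.7%, lncRNAs 54.8%, pseudogenes 69.1% and the 36 snRNAs that qualified 110%. The biological coefficient of variation common to all genes, from an edgeR fit with no groups, was 0.543, and 0.480 without replicate 6. As these are 6 pigs with 1 library each, the spread holds differences between animals and between library preparations, which cannot be told apart.

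By CPM, the 5 steadiest genes with a symbol and 100 CPM or more spanned 86.4 to 725 kb. SFMBT2, a polycomb-group protein, had a CV of 13.5% (78.7 to 118 CPM), PDE10A, a phosphodiesterase of the striatum, 14.9%, DSCAM, a neuronal adhesion molecule, 15.0%, MYO7A, a myosin of inner ear and retina, 15.7% and SPOCK1, a proteoglycan, 16.6%. After TMM scaling the order changed: MYO7A had a CV of 5.60%, SPOCK1 8.61%, DSCAM 10.4%, PDE10A 10.8% and SFMBT2 19.5%. The least steady of the 451 genes were TTLL11 (195%), CA10 (191%), ADAMTS18 (162%), PHYHIPL (106%) and GTPBP8 (104%).

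Pairs of libraries without replicate 6 had Spearman correlations of 0.894 to 0.958 across the 24148 genes, and pairs with it 0.802 to 0.911. Among 8970 genes of 10 CPM or more after TMM scaling, replicate 6 was below 0.5 times every other library in 948 and above 2 times every other library in 128. In the other 5 libraries these counts were at most 70 and 76. By CPM without TMM factors, 994 genes were low in replicate 6 and only 9 high, fewer than the 38 that were high in replicate 5, so the high genes rest on the scaling. After TMM scaling, those low in replicate 6 had a median span of 26.0 kb (848 with a span), and those high in it 230 kb (85 with a span), against 68.9 kb for all protein_coding genes of this level. BGN, a matrix proteoglycan, had 0.656 CPM in replicate 6 and 9.09 to 18.2 CPM elsewhere, and PTMA, a nuclear acidic protein, 4.49 against 29.7 to 113 CPM. Of the genes high in it after scaling, the neuronal cadherins CDH9 and CDH12 had, without TMM factors, 31.7 CPM against 5.73 to 18.2 and 114.9 CPM against 20.9 to 62.4 CPM. PCDH9, a protocadherin, had 216 CPM against 45.6 to 138 CPM. These 5 genes were named after their values were seen.

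In summed terms, genes of up to 20 kb held 2.38% of counts in replicate 6 and 3.94 to 4.85% in the other libraries, without overlap. Genes above 200 kb held 13.7% in it and 9.10 to 16.1% in the others, inside their range. Of the marker genes, TNNT3, a troponin of fast skeletal muscle, had 58.6 CPM in replicate 6 and 148 to 171 CPM elsewhere. CACNA1S, the calcium channel of skeletal muscle, had 11.5 against 43.3 to 51.9 CPM. The skeletal muscle list, which holds both genes, had 106 against 254 to 313 CPM, and TNNT3 gave 56.3% of its mean sum. The part of gene length in these differences was not tested.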

How the data were processed

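For each of 6 pigs at Baseline the authors made 1 library from serum RNA (input 100 ng), using a kit for little starting material, and read it in pairs on an Illumina instrument. Per the labels and the study's methods, reads were trimmed with Trim Galore 0.4.4, aligned with STAR 2.4.2a and counted per Ensembl gene in R 3.6.0 with featureCounts, with gene types from biomaRt. The deposited values are raw counts without normalization, filter or pooling. The build was not given in the sources used here, and 1467 of 1468 gene positions in the study's supplement overlap Sscrofa11.1 genes of the same NCBI number, so RefSeq spans of that assembly served as gene lengths.

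Shares and CPM were computed from the counts with Python 3.11.15. edgeR 4.0.16 gave TMM factors and the dispersion, and DESeq2 1.42.0 gave size factors, in R 4.3.3. Orders of types and genes were tested with exact sign-flip permutation tests at 0.05. Depth was 18229243 to 42902537 counts, at which the 95% Wilson interval of a type share is at most ± 0.0229 percentage points. Intervals and the floor of 3 counts cover counting error only. The dispersion fit and the depth formula were tested on simulated data.

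Named genes were the 20 of highest share, the 3 highest of each type with at least 0.01% of counts, the 10 highest nuclear protein_coding genes with a symbol, up to 3 of each list, the 5 highest and 5 lowest CVs at 100 CPM or more, and the 10 highest miRNA and lncRNA rows. Genes outside this rule are marked as named after their values were seen. The lists (red cell, platelet, neutrophil and monocyte, T and NK cell, B cell, endothelial, hepatocyte, cardiomyocyte, skeletal muscle, lung alveolar, kidney, neuron, photoreceptor, keratinocyte, pancreas, housekeeping, ribosomal protein, nuclear respiratory chain, histone, olfactory receptor) and members were chosen with earlier results of these data known. Alternatives were other totals, TMM and DESeq2 factors, other count minima, a common depth and each library left out.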

Additional observations from a re-analysis of the deposited data

Results flagged for a closer look

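Of 162 values checked over the 6 Baseline libraries, 28 had 1 library far from the other 5. The rule was a gap to the nearest library above 0.625 of the whole range (Dixon ratio). Replicates 3 and 5 account for 8 each and replicate 6 for 7. Some of these genes were named for their high CV, and several values belong to the TTLL11 group or to a list and its own members. The 28 values are thus not separate findings, and no explanation was tested for any of them.

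Replicate 3 was highest in the share of rows with the protein_coding label given 2 times (1.29%, others 0.774 to 0.937%), of pseudogenes (0.240%, others 0.161 to 0.181%), in the platelet list (245 CPM, others 153 to 186), in ITGB3 (46.2 CPM), PECAM1 (56.6 CPM) and ssc-mir-223 (3.28 CPM), and in the number of genes that hold 50% of the counts (92). It was lowest in the share of the 10 highest genes (44.2%). The CPM of replicate 3 given here are without TMM factors, of which it has the highest (1.44). With TMM factors the CV fell from 24.3 to 7.40% for PECAM1, from 27.9 to 10.8% for ITGB3 and from 79.5 to 54.4% for ssc-mir-223.

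Replicate 5 was highest in TTLL11 (25255 CPM), CA10 (22012 CPM), ENSSSCG00000034853 (22395 CPM), ENSSSCG00000042862 (17303 CPM), ENSSSCG00000045920 (9621 CPM), ADAMTS18 (3335 CPM), the histone list (204 CPM) and H1-3 (69.7 CPM). Replicate 6 was highest in snRNA (0.0554%, others 0.00474 to 0.0142%), the U1 copies ENSSSCG00000037026 (182 CPM) and ENSSSCG00000039278 (180.2 CPM) and the lncRNA ENSSSCG00000044278 (4421 CPM). It was lowest in the skeletal muscle list (106 CPM, others 254 to 313), TNNT3 (58.6 CPM) and CACNA1S (11.5 CPM).

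Elsewhere, ENSSSCG00000048719 was highest in replicate 1 (94237 CPM, others 39730 to 57588). ENSSSCG00000032599 was highest in replicate 2 (18324 CPM, others 5755 to 8670), as was ssc-mir-30a (0.889 CPM). ssc-mir-196a-2 (0.792 CPM) and the RNaseP_nuc row ENSSSCG00000020612 (0.629 CPM) were highest in replicate 4, each from few counts.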

How the results depend on the processing

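No paired analysis was possible because time points are not compared here, so the replicate numbers pair no samples. Merging repeated type labels and leaving out the second 5.8S copy were chosen after seeing the data. Of 464 values under an alternative, 448 stayed within the spread between libraries or within 1.5 times of the count reported. Most of the 464 values left out 1 library, which can hardly move a mean out of the spread of the same libraries. All 10 values computed with the total taken without the 10 genes of highest share were among those that moved further. With the total taken without the 10 genes of highest share, protein_coding held 80.9%, lncRNA 13.8% and rRNA 2.04%. With it taken without mitochondrial and ribosomal RNA genes, protein_coding held 55.8%, and a mean of 53.0 genes held 50% of the counts, against 19.8 with all genes. Without the second 5.8S copy rRNA held 3.82%, less than Mt_rRNA, so the order of these types turned. With each library left out in turn, the genes that hold 50% numbered 5.4 (without replicate 3) to 22.8 on average, and the neighbours in 1 order among the 10 highest genes numbered 3 to 5 (5 without replicate 2). Shares of protein_coding then ran between 47.5 and 50.6% and of lncRNA between 36.0 and 39.4%. The median CV was 36.9 to 46.4% and the edgeR coefficient 0.402 to 0.588 over all alternatives. The depth limits miRNA, snoRNA and other types under 0.01%, and 6 libraries limit an exact p to 0.03125.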
